A study of Mus musculus with 27 samples.

Results

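The first response of pancreatic islets to a systemic injection of 4-hydroxytamoxifen was described from 6 of the 27 arrays of the series, 3 from mice killed 2 h after the injection and 3 from untreated mice killed at time 0. The arrays were chosen by their titles, and all 8251 genes with a probe set of their own were taken, each read from whichever of its probe sets was brightest on average across the 27 arrays. Every group, the untreated mice included, carried the same 2 transgenes, MycER and BclXL, each under an insulin promoter, which confines them to the beta cells. MycER joins Myc to the hormone-binding part of the estrogen receptor and is active while 4-hydroxytamoxifen is bound, and BclXL is a survival protein that holds back the cell death Myc can otherwise start in beta cells. The RNA came from islets cut out by laser capture, so it can hold RNA of every cell type in the cut area, and it was amplified in 2 rounds. Neither mice injected with carrier alone nor mice lacking MycER are among the labelled groups, so effects of the injection, of the drug and of active MycER cannot be told apart. They also give no age or strain, and they number the replicates without saying that each is a separate mouse, so the p-values reflect variation among these samples, which may be technical. The question at 2 h is which RNAs move first.

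Myc is a transcription factor that pairs with Max and binds the E-box CACGTG, mostly near the starts of genes that cells need for growth. Its best known targets make ribosomes, start translation, and bring in or build nucleotides and amino acids. Mxi1 and its relatives compete with Myc for Max. Adult beta cells seldom divide and devote much of their protein synthesis to insulin, and a few general genes, among them the lactate carrier Slc16a1, are normally kept very low in them. Cebpd and Socs3 are early genes of cytokine signalling, and Fkbp5 and Errfi1 are well known targets of the glucocorticoid receptor.

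The labelled tissue showed in its defining RNAs. On the log2 scale the untreated arrays read 13.83, 13.74 and 13.88 for Ins2, a gene of insulin, and the 2 h arrays 13.83, 13.78 and 13.79. Iapp, the beta cell peptide amylin, read 12.74 ± 0.16 and 12.73 ± 0.08 (SD, n = 3). The groups overlapped in both. Ins2 is among the brightest probe sets of the array, where a difference may be hidden by saturation, which was not tested. BclXL's own gene Bcl2l1 read 9.15 ± 0.04 and 9.10 ± 0.15. The brightest Esr1 probe set, of the estrogen receptor gene, read 12.06 ± 0.15 untreated and 11.78 ± 0.10 at 2 h, while 3 other Esr1 probe sets read between 3.63 and 7.93 as group means; the files do not say whether any of them reads MycER. Array medians lay between 6.96 and 6.98, and arrays of 1 group correlated across probe sets at 0.978 to 0.987 at 2 h and at 0.978 to 0.984 when untreated, against 0.966 to 0.981 between groups. The control probe sets for RNA quality gave no common order. The 3′ excess of the actin control was 2.10, 2.15 and 2.37 in untreated and 2.96, 2.75 and 2.39 in 2 h arrays, without overlap, and that of Gapdh was 4.94, 3.65 and 5.67 against 3.28, 4.67 and 5.04, with overlap. Arrays give no read depth, and 3 arrays a group limit the precision. The 15 bacterial control probe sets read from 3.55 to 7.21 with a median of 3.94, so low levels may hold little specific signal.

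At 2 h, 40 genes passed the test, 34 higher and 6 lower than in untreated islets, which is 0.485% of the 8251 tested, 0.412% higher and 0.0727% lower. Among those that rose were genes of ribosome assembly (Imp3, Imp4, Bop1, Nop2, Utp4) and translation (Bzw2, Eif4ebp1), carriers of folate, amino acids and lactate (Slc19a1, Slc6a15, Slc16a1), and the cytokine and glucocorticoid responders Socs3, Cebpd, Fkbp5 and Errfi1. Changes were mostly near 2-fold: 17 of the 34 reached 2-fold and 2, Cebpd and Socs3, reached 4-fold, while no gene fell by 2-fold. In all 40 the 3 arrays of 1 group lay apart from those of the other. The call uses the difference between these same arrays, so in called genes their separation adds no support. Among all genes the 2 h arrays lay apart higher in 6.17% and lower in 10.1%. The test was limma's, fitted over all 27 arrays, with Benjamini-Hochberg adjustment over 12422 probe sets. Every adjusted p given here comes from that fit unless the text says that arrays were left out or that only 6 were used. The median difference over all genes was -0.06, and 36.6% of them lay above 0. Differences are 2 h minus untreated on the log2 scale with their standard error (SE), and levels of a group are means with their SD.

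The count rests on single arrays and on the variance taken from the other groups. It was 20, 14 and 78 without replicate 1, 2 or 3 at 2 h, 19, 19 and 47 without untreated replicate 1, 2 or 3, and 0 when limma saw the 6 arrays alone, where 860 genes, all 40 among them, had an unadjusted p under 0.05. Bzw2, Eif4ebp1, Nup85, Fkbp5, Imp3, Jpt1, Bop1, Imp4 and Slc19a1 stayed under the threshold whichever 1 of the 6 arrays was dropped, and the other 31 lost it in at least 1 of those fits, where no adjusted p of a called gene exceeded 0.244 and no sign turned.

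**Figure D1:**
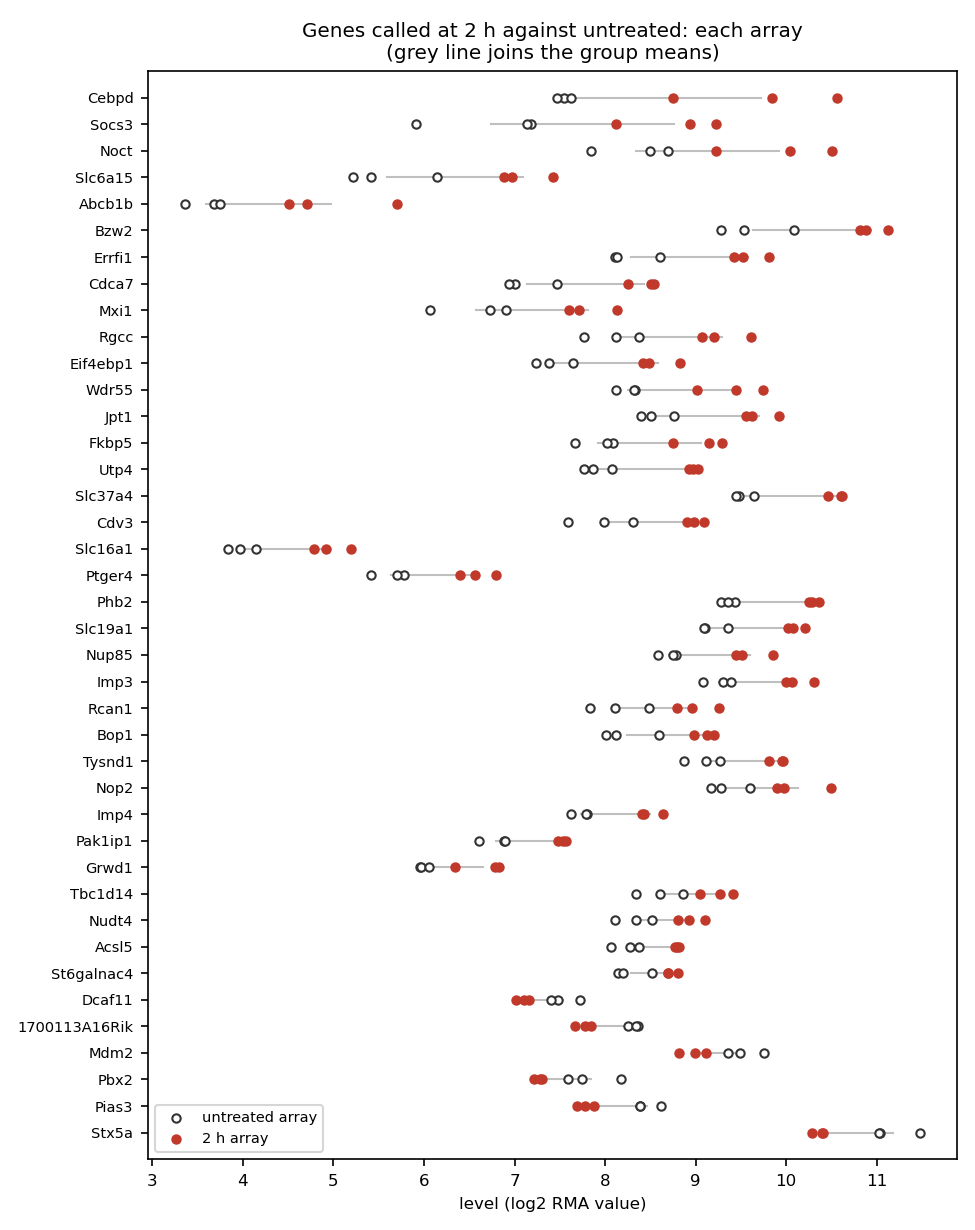
Log2 level of each of the 40 called genes in each untreated array (open circles) and each 2 h array (filled circles), ordered by the difference, with a grey line between the group means. The groups are apart in every gene. In Cebpd the 2 h arrays range from 8.75 to 10.56, and in Utp4 from 8.93 to 9.03.

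Promoter windows are shown for the 6 called genes with the lowest p that hold the E-box and for Socs3, whose window holds a STAT motif, because the E-box is the site Myc and Max bind and STAT factors carry cytokine signals to Socs3. Each window is 300 bases from RefSeq on GRCm38.p6, 250 before and 50 after the start of the gene in that table, written 5′ to 3′ along the gene, with the motif in capitals. The windows are Bzw2 (chr12:36156776-36157075, minus strand), Fkbp5 (chr17:28486100-28486399, minus strand), Imp4 (chr1:34439579-34439878, plus strand), 1700113A16Rik (chr3:88177736-88178035, minus strand), Cdv3 (chr9:103364930-103365229, minus strand), Nop2 (chr6:125131633-125131932, plus strand) and Socs3 (chr11:117969317-117969616, minus strand). Those of Cdv3 and Socs3 lie inside the outer bounds of the gene in the annotation.
Bzw2: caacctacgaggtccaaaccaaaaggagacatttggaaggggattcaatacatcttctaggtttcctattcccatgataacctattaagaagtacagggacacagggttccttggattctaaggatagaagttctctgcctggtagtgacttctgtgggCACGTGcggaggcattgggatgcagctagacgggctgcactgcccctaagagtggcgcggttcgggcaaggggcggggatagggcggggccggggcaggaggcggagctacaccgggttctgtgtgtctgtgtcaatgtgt
Fkbp5: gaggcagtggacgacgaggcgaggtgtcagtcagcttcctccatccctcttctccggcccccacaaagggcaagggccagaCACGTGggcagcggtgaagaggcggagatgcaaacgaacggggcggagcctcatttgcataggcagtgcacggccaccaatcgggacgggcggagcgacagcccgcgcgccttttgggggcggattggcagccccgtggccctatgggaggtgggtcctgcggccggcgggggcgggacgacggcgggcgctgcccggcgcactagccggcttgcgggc
Imp4: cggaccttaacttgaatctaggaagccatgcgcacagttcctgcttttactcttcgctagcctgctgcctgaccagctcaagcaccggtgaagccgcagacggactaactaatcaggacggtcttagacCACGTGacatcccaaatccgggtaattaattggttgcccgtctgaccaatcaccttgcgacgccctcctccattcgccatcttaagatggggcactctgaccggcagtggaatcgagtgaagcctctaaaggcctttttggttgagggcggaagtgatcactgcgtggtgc
1700113A16Rik: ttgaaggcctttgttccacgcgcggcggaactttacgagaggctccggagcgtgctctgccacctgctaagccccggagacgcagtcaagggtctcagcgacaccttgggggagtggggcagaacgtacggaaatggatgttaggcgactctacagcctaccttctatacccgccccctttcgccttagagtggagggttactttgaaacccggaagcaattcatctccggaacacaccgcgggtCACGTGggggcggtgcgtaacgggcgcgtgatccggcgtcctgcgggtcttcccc
Cdv3: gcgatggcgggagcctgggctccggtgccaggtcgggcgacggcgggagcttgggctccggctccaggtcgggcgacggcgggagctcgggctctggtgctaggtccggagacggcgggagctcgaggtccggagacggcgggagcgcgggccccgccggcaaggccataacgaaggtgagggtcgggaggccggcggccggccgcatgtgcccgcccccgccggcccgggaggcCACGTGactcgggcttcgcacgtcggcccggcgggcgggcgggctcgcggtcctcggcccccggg
Nop2: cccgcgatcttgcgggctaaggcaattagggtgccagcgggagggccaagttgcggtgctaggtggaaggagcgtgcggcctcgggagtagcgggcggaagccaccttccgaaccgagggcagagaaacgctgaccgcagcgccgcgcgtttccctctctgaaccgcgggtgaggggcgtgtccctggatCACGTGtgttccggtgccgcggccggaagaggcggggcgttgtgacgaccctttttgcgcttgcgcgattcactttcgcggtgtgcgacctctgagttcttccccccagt
Socs3: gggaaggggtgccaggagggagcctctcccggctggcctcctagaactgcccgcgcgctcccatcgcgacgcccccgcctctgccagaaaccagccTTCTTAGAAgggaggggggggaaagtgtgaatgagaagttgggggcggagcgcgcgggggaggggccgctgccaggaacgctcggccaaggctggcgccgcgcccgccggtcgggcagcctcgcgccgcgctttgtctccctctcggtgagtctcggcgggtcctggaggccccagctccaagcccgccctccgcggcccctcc

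With the start counted as 1 and the base before it as -1, the E-box CACGTG begins at -91 in Bzw2, -169 in Fkbp5, -121 in Imp4, -5 in 1700113A16Rik, -15 in Cdv3 and -60 in Nop2. It was found in 12 of the 33 called genes with a window (36.4%), against 753 of 6572 genes of the array (11.5%). Of 27 called higher with a window 10 held it, and of 6 called lower 2 did. The other holders are Dcaf11, Slc16a1, Utp4, Rcan1, Grwd1 and Tbc1d14, and of 66 ribosome biogenesis genes with a window 15 held it (22.7%). The STAT motif TTCNNNGAA stood in 2 of 33 called genes, Socs3 (at -154) and Cdca7, and in 8.51% of the array's genes. The core of the glucocorticoid receptor site, ACANNNTGT, was in Phb2 and Rcan1 and in 5.71% of all, and the cyclic AMP element TGACGTCA in Errfi1 and Rcan1 and in 3.17% of all. All 4 motifs are palindromes, so a match reads the same on both strands, and each was counted whether or not it overlapped another. A match is a string of letters in a window and not a shown site, and 7 called genes have no window in the table.

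**Figure D2:**
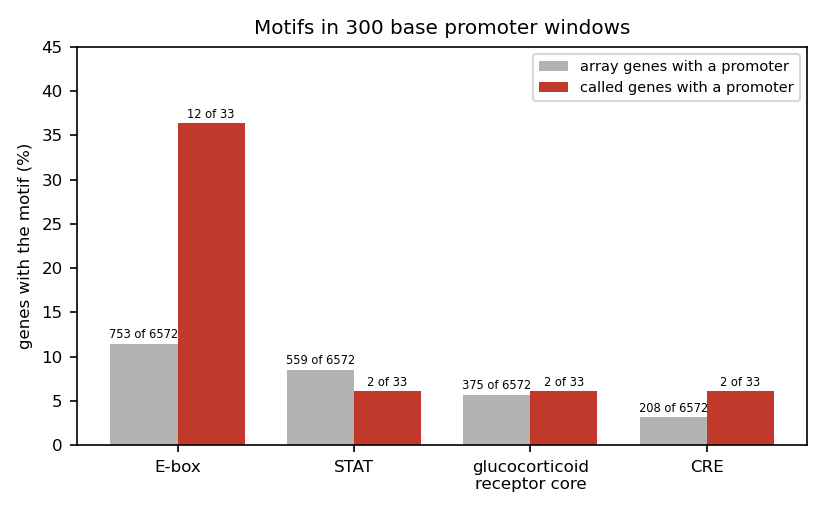
Percent of genes whose 300 base promoter window holds each of 4 motifs, for all array genes with a window (grey) and for the called genes with a window (red), with the counts above the bars. The E-box is in 12 of 33 called genes and in 753 of 6572 array genes.

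Of 82 measured genes that make ribosomes, 5 rose, 0 fell and 77 were not called. That is the highest count among the 40 lists, but its share of 6.10%, against 0.412% of all genes, was below that of shorter lists such as the nutrient carriers (8.57%) and the Myc network (10.5%). Their median difference was 0.36, and 72 of 82 lay above 0. In 32 of them (39.0%) every 2 h array lay above every untreated array, against 6.17% of all genes, and in 0 the reverse held. The mean level of the list was 8.03, 7.98 and 8.15 in untreated arrays and 8.38, 8.44 and 8.44 at 2 h, so the 3 treated arrays stood close together and above all untreated ones.

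Imp3 and Imp4 are proteins of the U3 particle, which cuts the precursor of the small subunit's RNA. Imp3 read 9.08, 9.30 and 9.39 untreated and 10, 10.31 and 10.06 at 2 h, a rise of 0.87 ± 0.14 (1.82-fold, adjusted p = 0.00342). Imp4 read 7.62, 7.80 and 7.79 against 8.64, 8.41 and 8.43, a rise of 0.76 ± 0.12. In both, every treated array stood clear of every untreated one. Utp4, a part of the same small subunit machine, read 7.77, 7.87 and 8.08 against 9.03, 8.93 and 8.97, a rise of 1.07 ± 0.22 (2.10-fold). Its treated arrays were nearly level, yet the call was lost without either of untreated replicates 1 and 2 or any 2 h replicate (adjusted p up to 0.158).

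Bop1, which acts in making the large subunit, read 8.60, 8.12 and 8.01 untreated and 8.98, 9.12 and 9.20 at 2 h (0.86 ± 0.14). Nop2, an RNA methyltransferase of the large subunit, read 9.60, 9.28 and 9.17 against 9.98, 9.90 and 10.50 (0.78 ± 0.16). In both genes untreated replicate 1 was the highest of its group. Second probe sets read -0.14 ± 0.19 for Bop1 and -0.03 ± 0.14 for Imp4, so the calls of these genes rest on 1 probe set each. Outside the list, 3 further called genes are known from ribosome assembly: Wdr55 rose by 1.14 ± 0.20, Pak1ip1 by 0.73 ± 0.15 and Grwd1 by 0.65 ± 0.14.

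The next members of the list stood just outside the threshold. Nhp2, a protein of small nucleolar RNA particles, read 9.11, 8.97 and 9.20 against 10.12, 9.93 and 10.47 (2.11-fold, adjusted p = 0.0519), and Rrp12, an export factor of ribosomal subunits, had 0.68 ± 0.15 at the same adjusted p. Pno1 had 1.10 ± 0.25 (adjusted p = 0.0564), with untreated arrays as far apart as 5.71 and 7.09. Just inside stood St6galnac4, a sialyltransferase (adjusted p = 0.041), and Pbx2 (adjusted p = 0.0426). Growth genes that are textbook Myc targets gave mixed values, and none of those named here was called. Ncl read 0.40 ± 0.26, Npm1 0.67 ± 0.28 and Odc1, the first enzyme of polyamine synthesis, 0.37 ± 0.21, each with overlapping arrays. Nme1 and Cdk4 read 0.07 ± 0.29 and 0.03 ± 0.19, also with overlap. Cad read 0.20 ± 0.11 and Ldha 0.76 ± 0.44, each with all 2 h arrays above the untreated ones. The 33 genes of cytosolic ribosomal proteins had a median of -0.003, and 25 of RNA polymerases I and III a median of 0.01. Both had 0 called, against 0.412% of all genes called higher, so lists this short could hold few calls. Of the 33, 3.03% lay apart upwards, and of the 25, 16%, against 6.17% of all genes. Downwards it was 6.06% and 16%, against 10.1%. Polr1e, Polr1a and Polr2e read 0.55 ± 0.17, 0.54 ± 0.20 and 0.62 ± 0.28, and Gtf3c1 and Gtf3c5 -0.50 ± 0.19 and -0.26 ± 0.11. None of these overlapped and none was called. Srm, which makes spermidine, read 8.37, 8.62 and 8.39 against 9.18, 9.20 and 9.16 (0.72, adjusted p = 0.145) and was the member of 41 genes of nucleotide, polyamine and serine synthesis with the lowest p, of which 0 were called (median 0.07).

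Among 51 translation factors 2 rose and 0 fell (median 0.10), which is 3.92% called higher against 0.412% of all genes, and 12 (23.5%) lay apart upwards against 6.17%. Bzw2, a relative of initiation factor 5 that tunes translation, had the lowest p of all genes. It read 9.53, 9.28 and 10.09 untreated and 10.88, 10.81 and 11.12 at 2 h, a rise of 1.30 ± 0.16 (2.47-fold, adjusted p = 0.0005005), and the least of 6 differences with 1 array left out was 1.13. Eif4ebp1, which holds back the cap-binding factor of translation until it is phosphorylated, read 7.65, 7.38 and 7.24 against 8.49, 8.83 and 8.42, a rise of 1.16 ± 0.17 (adjusted p = 0.00325). A release factor, Etf1, missed the threshold at 0.54 (adjusted p = 0.0576), with arrays of 9.02, 9.23 and 9.48 against 9.75, 9.88 and 9.72. Nup85, a scaffold protein of the nuclear pore, was called by both of its probe sets, at 0.90 ± 0.14 and 1.16 ± 0.15. The second of these read 7.15, 7.19 and 7.11 untreated and 8.19, 8.30 and 8.45 at 2 h, with little spread within either group.

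Of 35 carriers of amino acids and other nutrients 3 rose (8.57%, against 0.412% of all genes) and 0 fell (median 0.06). Slc19a1, the carrier of reduced folate, read 9.36, 9.10 and 9.09 against 10.08, 10.02 and 10.21, a rise of 0.92 ± 0.16 (adjusted p = 0.00829). Slc6a15, a carrier of neutral amino acids, read 5.22, 5.42 and 6.14 against 6.88, 6.97 and 7.42 (2.82-fold, adjusted p = 0.0223). Slc16a1, the lactate carrier, read 3.84, 4.15 and 3.97 against 4.92, 5.20 and 4.79 (0.98 ± 0.20), all within the range of the bacterial controls. The treated arrays were above the untreated ones in each, but a second probe set of Slc19a1 read 0.19 ± 0.16. Slc37a4, which carries glucose 6-phosphate into the endoplasmic reticulum, rose by 1.03 ± 0.22, and lost the call in every fit with 1 array left out (adjusted p from 0.051 to 0.145). Abcb1b, a drug efflux pump, rose by 1.38 ± 0.26 from a level within the bacterial range (3.68, 3.36 and 3.75 against 4.71, 5.70 and 4.51). Other enzymes that rose were Acsl5, which activates long-chain fatty acids (0.55 ± 0.11), Tysnd1, a protease of peroxisomes (0.82 ± 0.14), and Phb2, a mitochondrial scaffold protein (0.94 ± 0.18). Phb2 was the single called member of 85 genes of mitochondrial ribosomes and import (1.18%, against 0.412% of all genes; median 0.02).

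In the network around Myc, 2 of 19 genes rose (10.5%, against 0.412% of all genes) and 0 fell (median -0.08). Mxi1, the competitor of Myc, read 6.07, 6.91 and 6.73 untreated and 8.13, 7.60 and 7.71 at 2 h, a rise of 1.24 ± 0.24 (adjusted p = 0.0184). Cdca7, a Myc target tied to chromatin, read 7, 6.94 and 7.47 against 8.25, 8.51 and 8.54 (1.30 ± 0.26). Neither call held without untreated replicate 1 (adjusted p = 0.144 and 0.117). Mouse Myc itself read 4.07, 3.52 and 3.70 against 5.57, 4.72 and 4.33, low values without overlap that did not pass (1.11 ± 0.49). Max had 0.64 ± 0.21, not called, and Mxd1 and Mnt read -0.13 and 0.15. Of 53 classical Myc induced genes 4 rose, 0 fell and 49 were not called (median 0.23, 42 above 0). That is 7.55% called higher, against 0.412% of all genes, and 13 (24.5%) lay apart upwards, against 6.17%. The 4 include Phb2, Cdca7 and Slc16a1, which are also counted in lists above, so the shares of these lists are not independent. Of 30 classical Myc repressed genes 0 were called (median 0.13).

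Among called genes, the largest rises were those of Cebpd and Socs3, early genes of cytokine signalling. Socs3, the feedback inhibitor of cytokine receptors, read 7.18, 5.91 and 7.14 untreated and 8.94, 9.23 and 8.12 at 2 h, a rise of 2.02 ± 0.34 (4.06-fold, adjusted p = 0.00803). Its second probe set was also called (0.73 ± 0.16). Cebpd, a C/EBP transcription factor induced by cytokines, read 7.55, 7.47 and 7.62 against 9.84, 10.56 and 8.75, a rise of 2.17 ± 0.45 (4.50-fold, adjusted p = 0.0301). In both genes replicate 3 at 2 h was the lowest of its group, and both calls were lost without replicate 2 at 2 h (adjusted p = 0.0634 and 0.194). The Socs3 call was also lost without untreated replicate 2, and that of Cebpd held in 1 of the 6 fits, the one without replicate 3 at 2 h. Of 57 genes of the acute phase and cytokine feedback these 2 rose, 0 fell and 55 were not called (median 0.21). The share called higher was 3.51%, against 0.412% of all genes. Ptger4, a receptor of prostaglandin E, rose by 0.95 ± 0.17. A probe set of Reg3b, a secreted antimicrobial lectin,, not the one that stands for the gene, was called: it read 4.41, 4.75 and 4.14 untreated and 8.15, 8.73 and 10.37 at 2 h, a rise of 4.65 ± 0.71. The probe set that stands for Reg3b read 2.04 higher and was not called (adjusted p = 0.225).

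Of 38 glucocorticoid responsive genes 3 rose (7.9%, against 0.412% of all genes), 0 fell and 35 were not called (median 0.14). In the list 13 genes (34.2%) lay apart upwards, against 6.17% of all genes. Fkbp5, a co-chaperone of steroid receptors, read 8.09, 7.67 and 8.02 against 9.15, 8.75 and 9.29, a rise of 1.14 ± 0.18 (adjusted p = 0.00342). Errfi1, which inhibits the receptor of epidermal growth factor, read 8.11, 8.13 and 8.61 against 9.81, 9.42 and 9.52 (1.30 ± 0.25), and Cebpd, counted in both lists, is the other. Treated arrays of both stood clear of the untreated ones, though a second Errfi1 probe set read 0.08 ± 0.08. Among its uncalled members Zbtb16 had 1.68 (adjusted p = 0.187), while Tsc22d3 and Per1, known targets of the receptor, read -0.21 and 0.26 with overlapping arrays. Noct, an early clock-related enzyme, rose by 1.58 ± 0.33, Rgcc, a regulator of the cell cycle, by 1.21 ± 0.24, and Rcan1, an inhibitor of calcineurin, by 0.86 ± 0.18. Noct's other probe sets disagreed, at 1.13 ± 0.28 and -0.45 ± 0.55, neither called. The remaining genes that rose were Jpt1 (1.14 ± 0.18), Cdv3 (1.03 ± 0.18), Tbc1d14, which acts in autophagy (0.64 ± 0.14), Nudt4, an inositol phosphate hydrolase (0.62 ± 0.13), and St6galnac4 (0.44 ± 0.10). Second probe sets of Cdv3, Nudt4 and Grwd1 read 0.17 ± 0.09, -0.11 ± 0.13 and -0.16 ± 0.19, each with overlap, and that of St6galnac4 read 0.87 ± 0.20 (adjusted p = 0.0535). Of 14 other probe sets of called genes 2 were called, those of Nup85 and Socs3.

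Some immediate early and inflammatory genes gave large differences that did not pass, and in these the 2 h arrays disagreed with one another. Cxcl1, a chemokine that draws neutrophils, read 6.36, 6.12 and 6.10 untreated and 11.11, 11.00 and 6.39 at 2 h (3.31 ± 0.89, adjusted p = 0.129). Ccl7, a chemokine for monocytes, read 3.91, 4.05 and 3.84 against 8.32, 9.08 and 4.25, and Il6 3.61, 3.60 and 3.48 against 6.31, 6.65 and 3.64 (adjusted p = 0.0591). Replicates 1 and 2 were high in all 3 genes, and replicate 3 lay just above the untreated arrays. The chemokine and NF-kB list of 50 genes had 0 called, a median of 0.35 and 14 members apart upwards (28.0%, against 6.17% of all genes). Its mean level was 6.49, 6.40 and 6.42 untreated and 7.64, 7.34 and 6.57 at 2 h. Among 41 immediate early transcription factors 0 were called (median 0.42), and 8 (19.5%) lay apart upwards, against 6.17% of all genes. Jun, Junb and Ier2 read 0.08 ± 0.13, 0.50 ± 0.16 and 0.63 ± 0.33, each with overlap. Atf3 came nearest, with 9.04, 8.27 and 7.66 against 6.77 to 6.98 (1.48 ± 0.34, adjusted p = 0.0566). Its other probe sets read 0.24 ± 0.15 with overlap and -0.50 ± 0.15 with all 2 h arrays below the untreated ones, neither called. Dusp1, a phosphatase of MAP kinases, read 10.68, 9.26 and 8.51 against 7.85 to 8.45. Fos (7.65, 6.17 and 4.62 against 4.73 to 5.27) and Egr1 (8.73, 9.28 and 7.95 against 7.86 to 8.06) overlapped. Their second probe sets read -0.20 ± 0.16 and -0.16 ± 0.20, also with overlap. Replicate 3 was again the lowest 2 h array in Scd1, a fatty acid desaturase, at 11.08, 11.41 and 8.46 against 7.25 to 8.00. So it was in Dcn, a matrix proteoglycan of fibroblasts, at 11.04, 11.23 and 7.78 against 7.69 to 8.58. Neither was called.

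No marker of another cell type was called, against 0.485% of all genes, so lists of this size could hold few calls. The levels of some marker lists differed between arrays. Of 78 leukocyte markers 0 were called, 60 lay above 0, against 36.6% of all genes, and the median was 0.38. In 11 (14.1%) the arrays lay apart upwards, against 6.17% of all genes, and in 4 (5.13%) downwards, against 10.1%. The mean of the 78 was 7.13, 7.04 and 7.29 untreated and 8.06, 7.29 and 7.61 at 2 h, highest in replicate 1. The neutrophil protein S100a8 read 6.25, 5.49 and 8.78 against 11.88, 9.41 and 9.40, and Lyz2, lysozyme of macrophages, 8.18, 8.26 and 8.99 against 12.02, 9.36 and 9.12. Ptprc, the common leukocyte marker, read 6.33, 5.98 and 6.88 against 8.12, 6.79 and 8.03, with overlap. Its other probe sets read -0.04 ± 0.09 and 0.13 ± 0.18, also with overlap. The further leukocyte markers Cd68 and Itgam read 0.60 ± 0.36 and 0.28 ± 0.19, with overlap, while Cd3e of T cells and Cd79a of B cells differed by -0.02 and 0.03. Of 26 acinar markers 0 were called and 22 lay above 0, against 36.6% of all genes, with a median of 1.34. Among them 1 (3.85%) lay apart upwards, against 6.17% of all genes, and 0 downwards. The acinar mean was 9.89, 7.70 and 8.15 untreated and 9.25, 9.53 and 10.47 at 2 h, so untreated replicate 1 stood above replicates 1 and 2 at 2 h. Lists of endothelial, duct, and fibroblast and stellate markers had medians of 0.03, -0.14 and 0.12, each with 0 called. A mean marker level cannot tell more cells of a type from more RNA per cell. With the acinar and leukocyte means as covariates 101 genes were called, 36 of the 40 among them, and without the 4 arrays of the series richest in leukocyte markers, replicate 1 at 2 h among them, 20 were called, 15 of the 40 among them.

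**Figure D3:**
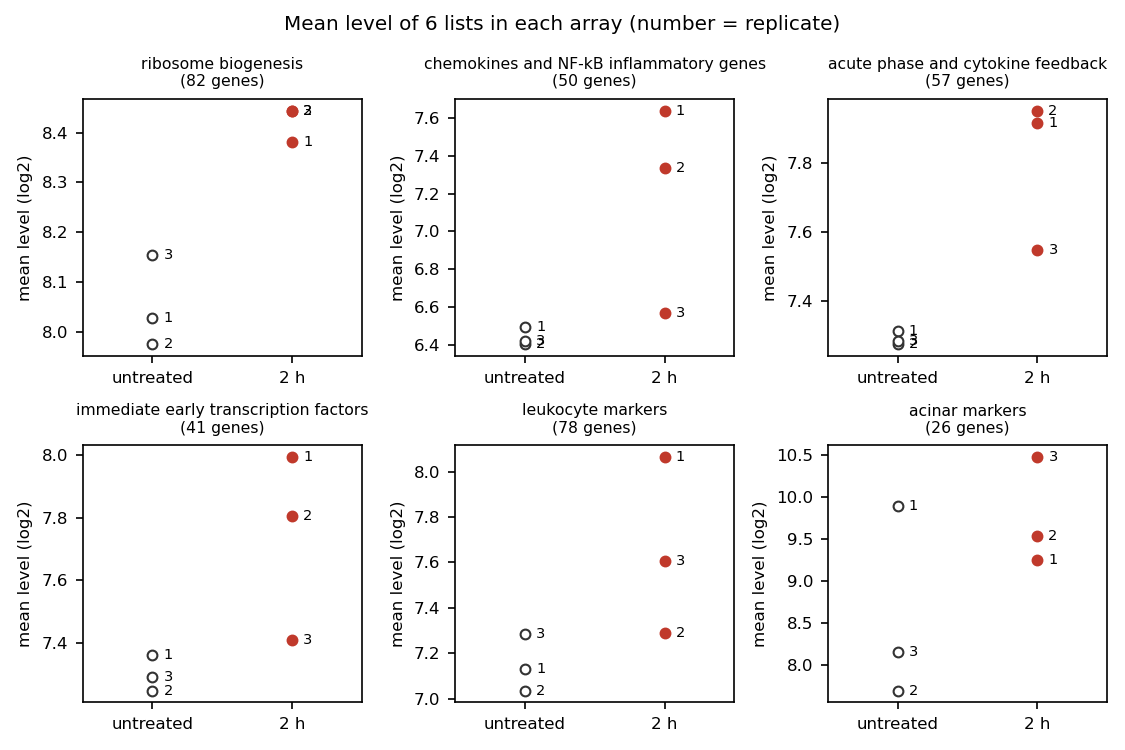
Mean log2 level of 6 gene lists in each of the 6 arrays, with the replicate number beside each point (open, untreated; filled, 2 h); each panel has its own axis. The ribosome biogenesis points at 2 h lie between 8.38 and 8.44, whereas the chemokine points lie between 6.57 and 7.64 and the acinar points of the 2 groups overlap.

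The 6 genes that fell did so by less than 2-fold. Mdm2, the ligase that marks p53 for destruction, read 9.49, 9.36 and 9.75 untreated and 8.99, 9.11 and 8.82 at 2 h, a fall of 1.47-fold (adjusted p = 0.0253). Stx5a, a fusion protein of Golgi vesicles, read 11.48, 11.04 and 11.02 against 10.41, 10.39 and 10.29, which is 1.76-fold lower. Pias3, an inhibitor of STAT3, read 8.62, 8.39 and 8.39 against 7.69, 7.78 and 7.88 (1.61-fold lower, adjusted p = 0.00975). Its 2 other probe sets read -0.37 ± 0.16 and -0.39 ± 0.17 without overlap and were not called. The rest were 1700113A16Rik, a long noncoding RNA in RefSeq (1.47-fold), Dcaf11, a substrate adaptor of a ubiquitin ligase (1.36-fold), and the homeodomain factor Pbx2 (1.49-fold). None of the 6 calls held without replicate 1 at 2 h, where all 20 called genes were higher, and Pbx2 reached an adjusted p of 0.244 without untreated replicate 1.

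Lists of beta cell transcription factors and of beta cell function had medians below that of all genes (-0.06). In them 5 of 30 and 5 of 45 genes lay above 0, against 36.6% of all genes. A list of 15 islet hormones had a median of -0.02 with 0 called. Pbx2, called lower as were 0.0727% of all genes, was the 1 called member of 30 beta cell transcription factors (median -0.15). Of these 30, 6 (20.0%) lay apart downwards, against 10.1% of all genes. Pdx1, the master factor of the beta cell, read 7.12, 6.94 and 7.11 untreated and 6.11, 6.65 and 6.69 at 2 h (-0.57 ± 0.20, adjusted p = 0.244). Of 45 genes of beta cell function 1 rose, Slc6a15 (2.22%, against 0.412% of all genes), and 0 fell (median -0.12). In that list 5 (11.1%) lay apart downwards, a share near the 10.1% of all genes. Ptprn, a granule protein, read 11.12, 11.18 and 10.95 against 10.64, 10.50 and 10.32, and was not called. Mdm2, also among the 0.0727% called lower, was the 1 called member of 26 genes of the p53 pathway (median -0.16). Of these 26, 4 (15.4%) lay apart downwards, against 10.1% of all genes. Chek1, a kinase of the DNA damage checkpoint, read 7.65, 7.11 and 7.71 against 6.48, 6.83 and 6.60 (adjusted p = 0.066). Ddit3, the stress factor CHOP, read 9.31, 8.76 and 8.78 against 8.18, 8.43 and 7.91 within an unfolded protein response list of 51 with 0 called (median -0.09) and 9 (17.6%) apart downwards, against 10.1% of all genes. Mx1, an interferon-induced GTPase, had the largest fall of all genes that lay apart but were not called, 7.70, 8.29 and 8.23 against 6.44, 6.43 and 5.84 (-1.84 ± 0.41, adjusted p = 0.0519). Cell division genes were near the median of all genes: 54 of DNA replication had a median of -0.03 and 48 of mitosis -0.10, with 0 called in either, and Mki67, a marker of dividing cells, read 6.04 ± 0.29 and 6.05 ± 0.58.

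**Figure D4:**
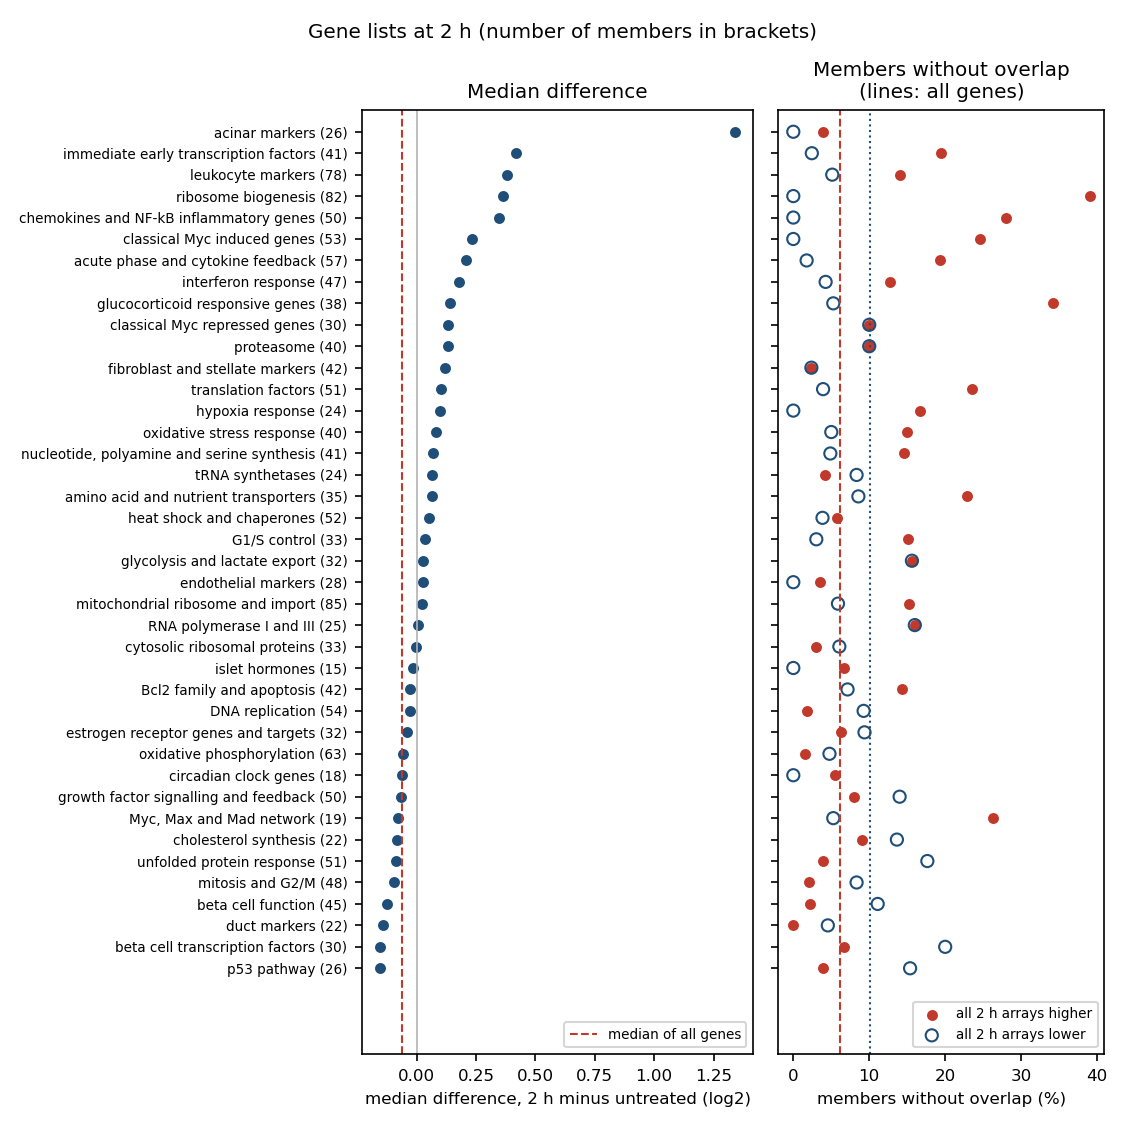
Left, median difference of each of 40 gene lists at 2 h, with the median of all genes (-0.06) as a dashed line. Right, percent of members whose 2 h arrays all lie above (filled) or below (open) the untreated arrays, with lines at 6.17% and 10.1% for all genes. Acinar markers have the highest median (1.34) with 3.85% apart upwards, and ribosome biogenesis has 39.0% apart upwards.

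The called genes followed different courses in later groups, which all share the untreated arrays with the 2 h comparison, so their differences from untreated are a description. The 34 genes that rose had a median difference of 1.01 at 2 h, 0.81 at 4 h, 0.76 at 8 h and 0.32 at 24 h. It was 0.15 after daily dosing for 21 days, and once dosing had ended it was 0.51 on day 2, 0.36 on day 4 and 0.23 on day 6. Errfi1 was back at -0.05 by 4 h, and Rgcc went from 1.21 to 0.62 at 4 h and 0.04 at 8 h. Bzw2 stood at 1.41, 1.36 and 0.90 at 4, 8 and 24 h and 1.25 at 21 days, and Jpt1, a small cytoplasmic protein, at 1.28, 1.40, 1.11 and 0.90. At 6 days off Bzw2 read 0.25, with arrays inside the untreated range, and Jpt1 0.57. Errfi1 read 0.67, 1.13 and 0.52 at 2, 4 and 6 days off, and Rgcc -0.18, 0.28 and 0.04. Mxi1 read 1.24 at 2 h and 0.91 at 24 h, then 1.68 after 21 days of dosing and 2.13 when dosing had stopped for 2 days. Acsl5 read 0.55, 0.63, 1.07 and 1.38 in the same groups. Bop1 and Grwd1 turned from 0.97 and 0.63 at 4 h to -0.77 and -0.70 at 21 days. The 6 genes that fell lay below untreated at every time up to 24 h, between -0.95 and -0.10, and Mdm2 read 0.30 at 21 days.

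**Figure D5:**
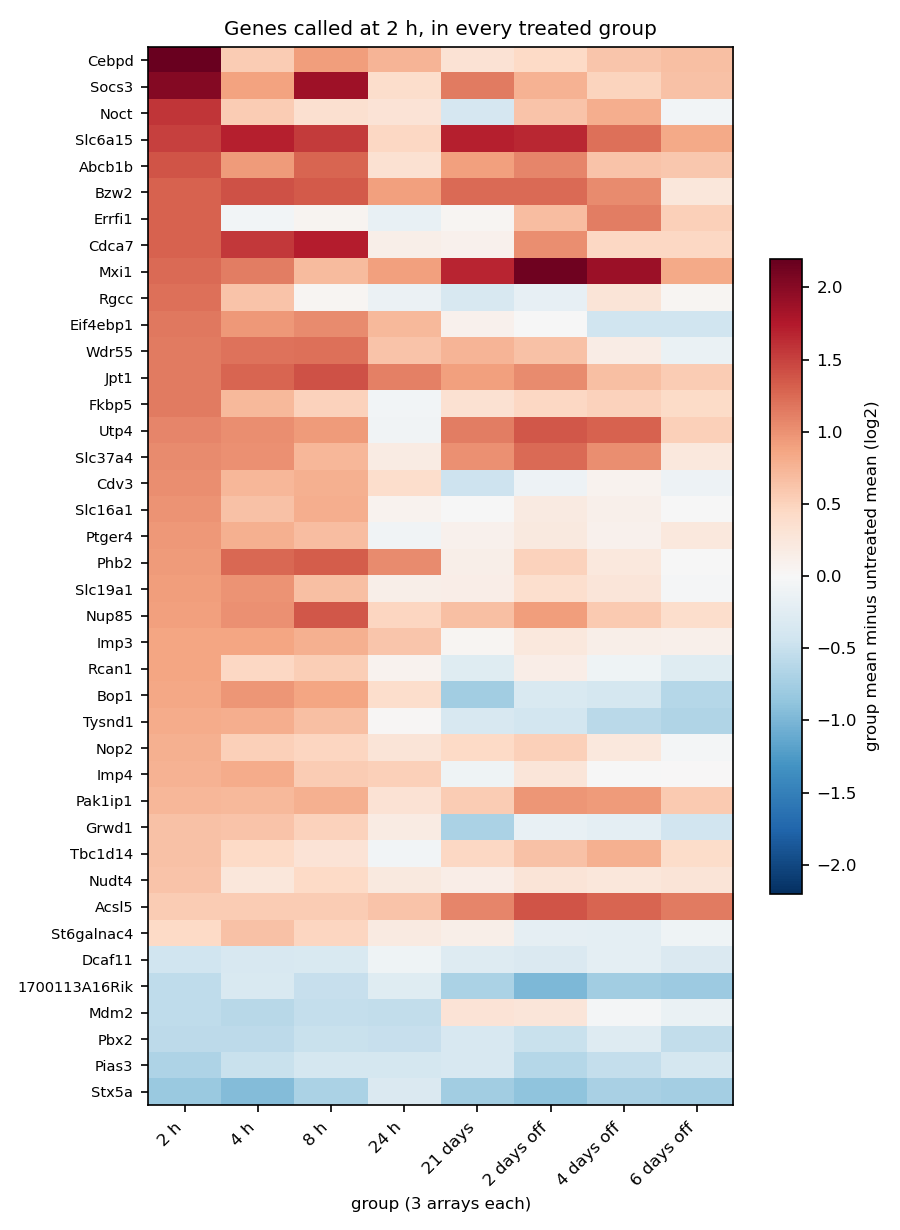
Difference of each treated group's mean from the untreated mean (log2, colour) for the 40 called genes, ordered by their difference at 2 h. Errfi1 is near 0 at 4 h, Bzw2 stays red up to 4 days off, and Mxi1 and Acsl5 have their highest values at 2 days off.

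The difference between 4 h and 24 h is one of group means that do not enter the 2 h comparison. The 2 tests are not independent, since both take their standard error from the same fit of all 27 arrays. Of the 34 genes that rose at 2 h, 11 were lower at 24 h than at 4 h with an adjusted p under 0.05 and 0 were higher. Of all 8251 genes, 81 were called lower and 187 higher, which is 3.25% in either direction. Their median difference was -0.47, against -0.02 over all genes, and 32 of the 34 lay below 0, against 53.9% of all genes. Cdca7, at 8.70 ± 0.37 at 4 h and 7.27 ± 0.35 at 24 h, fell by 1.43 ± 0.26 (adjusted p = 0.0034), and Slc6a15 fell by 1.26 ± 0.30. Utp4 went from 8.93 ± 0.37 to 7.82 ± 0.36 (adjusted p = 0.0086), and Slc19a1 from 10.16 ± 0.13 to 9.32 ± 0.05 (adjusted p = 0.00535). The others were Ptger4, Slc37a4, Fkbp5, Tysnd1, Bop1, Nup85 and St6galnac4, with falls from 0.85 down to 0.44. Between the same groups the acinar mean went from 9.58, 9.32 and 9.76 to 11.10, 10.69 and 10.57, and the leukocyte mean from 7.496, 6.99 and 7.01 to 7.30, 7.04 and 7.15. With both as covariates 9 genes called at 2 h were also called between 24 h and 4 h, all of them lower at 24 h. Without 1 of the 6 arrays of this comparison the count was 5, 9 and 6 (24 h replicates 1, 2 and 3) and 10, 4 and 5 (4 h replicates 1, 2 and 3).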

How the data were processed

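RNA was measured on 27 Affymetrix arrays of laser-captured islets, and 6 of them are compared here. Per the labels, RNA was linearly amplified in 2 rounds and labelled with biotin. The deposited values are on the log2 scale and were made by the authors with RMA (named in the submitters' processing notes; version and settings: not given in the sources used here). In general RMA corrects background, normalizes by quantiles and sums probes into probe sets. The authors' values were used without further scaling.

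Of 12488 probe sets, 66 controls were left out. By the platform annotation 10833 have 1 symbol, 396 several and 1193 none, and 2073 of 8251 genes have more than 1 probe set; 10817 probe sets had an Entrez identifier that the RefSeq GRCm38.p6 table lists. limma 3.58.1 (R 4.3.3; lmFit and eBayes) was fitted over 9 group means with 18 residual degrees of freedom, two-sided, and calls needed an adjusted p below 0.05, whatever the fold. The method was tested on simulated data. A permutation of 3 arrays against 3 cannot reach that threshold.

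The comparison, the 40 gene lists (1624 of 2197 symbols on the array) and the tests were chosen with earlier results of these data known. Named genes are every called gene, each list's called members and up to 5 uncalled members with the lowest p, a fixed panel, and the 10 largest rises and falls among uncalled genes whose arrays did not overlap. Not all are printed. Lists of genes share members. Other settings were centring, quantile normalization, a filter on dim probe sets, trend and robust variance, array weights, a replicate block, marker covariates, averaging the probe sets of each gene, the 6 arrays alone, other thresholds and leaving out arrays. Tables were made with Python 3.11.15, pandas 2.3.3 and numpy 2.4.6.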

Additional observations from a re-analysis of the deposited data

How the results depend on the processing

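The count of 40 genes called at 2 h was 17 with a 2-fold minimum, 69 at an adjusted p under 0.1, 103 with array weights, 101 with the acinar and leukocyte marker means as covariates, 20 when the 4 leukocyte-richest arrays were dropped and 0 when limma was given just the 6 arrays (unadjusted p under 0.05 in 860 genes, lowest adjusted p 0.0873). It ranged from 14 to 78 with 1 of the 6 arrays left out, and the 11 genes also lower at 24 h than at 4 h ranged from 4 to 10 with 1 of those 6 arrays left out. The cause of these shifts was not tested. The count was 38 with median centring, 40 with quantile normalization, 43 without the dimmest 40% of probe sets, 37 with a trend and robust variance and 48 when the probe sets of each gene were averaged. Same-numbered replicates of the 2 groups deviated from their means with correlations of -0.23, 0.01 and -0.08. Differently numbered ones gave -0.24 to 0.27. With 3 arrays a group, such correlations cannot decide whether the numbers pair the samples. With the replicate block 41 genes were called at 2 h, 36 of the 40 among them. In that setting 12 genes called at 2 h were also called at 24 h against 4 h, 1 higher and 11 lower. Over 636 pairs of a called gene and a setting, 0 turned sign, 436 kept the call and 200 lost it, and 22 of 640 pairs of a list median and a setting moved beyond the spread between replicates. Centring moved the median of all genes from -0.06 to -0.07. Of the 34 genes that rose, 9 have an untreated mean under 7.21, the highest bacterial control.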

Other observations

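Called probe sets that stood for no gene numbered 9. Besides those of Nup85, Reg3b and Socs3, a probe set of Nsun2, an RNA methyltransferase, read 9.24, 9.35 and 9.47 untreated and 10.03, 9.90 and 10.37 at 2 h (0.75 ± 0.16), and the probe set that stands for Nsun2 read 0.78 (adjusted p = 0.103). A probe set of Lrrfip1 read 3.84, 3.90 and 4.51 against 5.65, 6.00 and 5.33, within the range of the bacterial controls. Probe sets with several symbols read 1.22 ± 0.19 higher (Gm10651 and Josd1), 0.58 ± 0.12 higher (Gm8069 and Tomm5) and 0.81 ± 0.18 higher (Rasl2-9 and Ran), and a probe set with no symbol 1.02 ± 0.18 higher.

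Of 47 interferon-related genes 0 were called and 35 lay above 0 (median 0.18, against -0.06 over all genes), and 12.8% lay apart upwards against 6.17% of all genes. Ifi204 read 6.81, 7.53 and 7.64 untreated and 9.12, 9.28 and 7.69 at 2 h, and Gbp2 5.68, 6.08 and 6.14 against 6.89, 7.78 and 6.38, both with replicate 3 at 2 h nearest to the untreated arrays. Mx1 read below its untreated arrays. Casp4, an inflammatory caspase, read 5.46, 5.49 and 5.5 against 7.01, 7.11 and 5.77 and was not called.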
